A study of Mus musculus with 27 samples.

Results

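Matrix metalloproteinases (MMPs) are zinc endopeptidases that cut collagens, laminins and other components of the extracellular matrix, and the tissue inhibitors of metalloproteinases (TIMPs) bind their active sites and block them. In growing vessels, MMPs open the basement membrane ahead of sprouts, whereas TIMPs limit this degradation, and several TIMPs also act on cell growth without inhibiting a protease. Here 10 genes of this system were followed in the mouse retina, namely the inhibitors Timp1, Timp2, Timp3 and Timp4, the membrane-anchored proteases Mmp14 and Mmp15, the gelatinases Mmp2 and Mmp9, the stromelysin Mmp3 and the macrophage elastase Mmp12. They were chosen by their symbols, with earlier results of these data known, out of 40129 genes in the table of normalized reads. All 10 were found there and passed the filter on low values.

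Whole retinas of wild-type C57BL/6 mice (C57BL/6J in the study's methods) were sequenced, with 1 or both retinas of a mouse in each library. In the oxygen-induced retinopathy (OIR) model, pups are kept in hyperoxia, which stops and prunes the retinal vessels, and are then returned to room air. OIR mice were analysed at postnatal day 14 (p14, n = 6), a time of retinal hypoxia, and at p17 (n = 8), a time of retinal neovascularization (RNV). Controls (nOIR) stayed in room air until p14 (n = 6) or p17 (n = 6), and all 4 groups were untreated otherwise. Per the study's methods, each group held fewer litters than mice, and nOIR p17 held the fewest litters. The litter of each mouse was not used here, and p-values take mice as independent, so effects of litter and of group cannot be told apart. Fewer cells of a type and less RNA per cell cannot be told apart in whole retinas.

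Library totals, recovered as whole reads, lay between 17029536 and 33593428. Photoreceptor markers were abundant in every group, with summed levels over 6 genes of 881200 to 1099000 normalized reads in nOIR p14, 632100 to 812200 in OIR p14, 979300 to 1313000 in nOIR p17 and 848800 to 1352000 in OIR p17 mice. Neutrophil markers were near 0, with sums of at most 40.5 normalized reads over the 5 of 7 genes found in the table and Mpo at 0 in 24 of 26 mice. Lens markers ranged widely within groups, with summed levels of 122.5 to 18860 normalized reads in nOIR p14 (median 486), 245 to 6720 in OIR p14 (median 2467), 190 to 11070 in nOIR p17 (median 2321) and 412 to 32100 in OIR p17 mice (median 7942). Libraries also differed in genes whose transcripts start with a GC-rich stretch (GC content of at least 72.7% in the first 300 bases, 1908 genes). Their median log2 deviation was -0.30 in OIR p14 mouse S1 and -0.15, -0.30 and -0.28 in OIR p17 mice S6, S7 and S8, whereas the other 22 mice lay between -0.09 and 0.17. The GC content of the first 300 bases of Timp2 and Mmp15 was above that of 90.4% and 91.5% of the genes that averaged 10 or more normalized reads, so values with and without these libraries are given for Timp2 and Mmp15.

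In hypoxic OIR retinas at p14, Timp1 and Mmp12 rose strongly, Mmp9 fell, and the other 7 genes did not pass the test. At p17, Timp1 and Mmp12 were again high, Mmp14 was 2.06-fold higher, Timp3 and Mmp2 rose, Mmp9 was again lower, and Timp2, Timp4, Mmp3 and Mmp15 did not pass. Limma on log2(normalized reads + 1) was used for each comparison, and a gene passed at an adjusted p (Benjamini-Hochberg over the 27137 genes tested) under 0.05. At p14, 2 of the 10 genes passed as higher and 1 as lower, where 3.18% of all genes tested passed as higher and 2.91% as lower. At p17, 5 of 10 passed as higher and 1 as lower, where the shares over all genes tested were 7.39% and 5.12%. Since the 10 genes were chosen with earlier results known, these shares are given for reference and are not a test of the set. A log2 fold change above 2 as well, which defines differentially expressed genes (DEG), was reached by Timp1 and Mmp12 at both time points. Among all genes tested, 0.744% were such upregulated DEG at p14 and 1.9% at p17. The median log2 fold change of the 10 genes was 0.07 at p14 and 0.57 at p17, beside 0.02 and -0.02 over all genes tested. The median at p17 includes Mmp3, which passed the filter on low values only through the OIR p17 group. The groups did not overlap for 2 higher genes and 1 lower gene at p14, where 1.91% of all genes tested had every OIR mouse above every control and 1.86% every OIR mouse below. At p17, 5 higher genes and 1 lower gene had groups that did not overlap, where these shares were 3.9% and 1.98%.

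**Figure D1:**
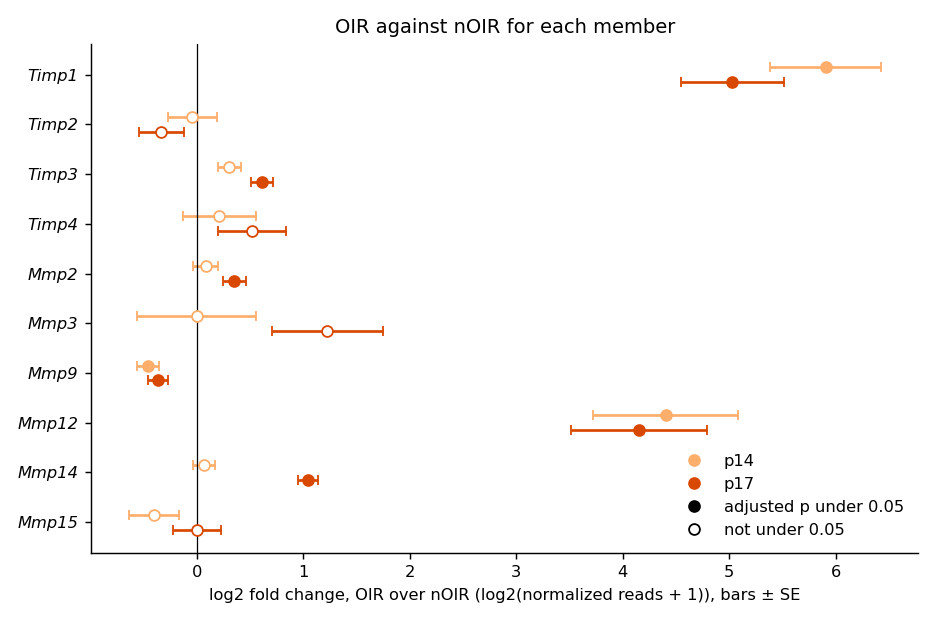
Log2 fold change of OIR over nOIR mice on the log2(normalized reads + 1) scale for each gene at p14 (light points) and p17 (dark points), with bars of 1 SE, where filled points passed at an adjusted p under 0.05. Timp1 and Mmp12 lie above 4 at both time points, Mmp14 lies near 0 at p14 and at 1.04 at p17, and Mmp9 lies below 0 at both.

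Timp1 encodes a secreted inhibitor of many MMPs that reactive astrocytes are known to express. Its level in nOIR p14 mice ran from 0.91 over a median of 5.16 to 10.5 normalized reads. In OIR p14 mice it ran from 106 over 404 to 539 normalized reads. Every OIR p14 mouse was therefore above every control, and the lowest of them (106) stood far from the highest control (10.5). At p17, nOIR mice had 3.19 to 12.5 normalized reads with a median of 5.99, and OIR mice had 46.7 to 604 with a median of 362. The lowest OIR p17 values were those of mice S1 (46.7), S7 (129.9) and S8 (140.4), and the groups did not overlap. Timp1 was 59.9-fold higher in OIR mice at p14 (log2 fold change 5.90, SE 0.52, adjusted p = 9.97e-09 by limma). At p17 it was 32.6-fold higher (log2 fold change 5.03, SE 0.48, adjusted p = 6.11e-09). The effects at p17 and p14 differed by -0.88 on the log2 scale (SE 0.71, adjusted p = 0.715 by limma for the difference), which did not pass.

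Gfap, the intermediate filament of reactive astrocytes and Müller glia, was also higher in OIR mice at both ages. At p14 its mean was 600.5 ± 293 (SD, n = 6) normalized reads in controls and 5726 ± 2251 in OIR mice (adjusted p = 5.11e-08 by limma), and at p17 it was 485 ± 168 and 6381 ± 2020 (n = 8, adjusted p = 1.46e-10). Of the 6 markers of astrocytes and Müller glia, 1 was higher and 3 were lower at p14, and 2 were higher and 3 lower at p17. Gfap was the higher one at p14, joined by Pax2 at p17. The lower ones at p14 and p17 were Aqp4 (to 0.584 and 0.55 of the control level), Glul (0.505 and 0.722) and Rlbp1 (0.699 and 0.647). The summed level of the 6 markers was 41230 to 53500 normalized reads in nOIR p14, 35890 to 45320 in OIR p14, 41980 to 50020 in nOIR p17 and 33400 to 50470 in OIR p17 mice. The part of glia in the level of Timp1 was not tested. Over the 26 mice, the 3 genes whose log2 levels followed Timp1 most closely were Pcolce, an enhancer of procollagen processing (Pearson r = 0.978), Bcl3, a nuclear partner of NF-kappaB (0.974), and Gm16174 (0.968). These correlations include the group differences. Over deviations from the group means, r was 0.755, 0.855 and 0.71.

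Timp1 lies inside an intron of Syn1 on chromosome X, on the opposite strand, and the library kit does not mark strand. Syn1, which encodes a synaptic vesicle protein, had a mean of 6159 ± 225 (SD, n = 6) normalized reads in controls and of 4017 ± 1204 in OIR mice at p14 (log2 fold change -0.70, SE 0.16, adjusted p = 0.00656 by limma), so host and guest gene moved in opposite directions at p14. At p17, Syn1 had 6724 ± 386 and 5034 ± 599 normalized reads and did not pass (adjusted p = 0.0661).

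The promoter of Timp1 is shown because this gene had the largest fold change of the 10 at both time points. Windows from 250 bases before to 50 bases after the start, from RefSeq (GRCm38.p6), were used for 8 of the 10 genes, with 2 starts for Mmp12, while those of Mmp2 and Mmp9 were not analysed here. The Timp1 window is chrX:20869916-20870215 on the plus strand. Both strands were searched for the AP-1 letters TGANTCA, for a core of the hypoxia response element in the form ACGTG or in the form GCGTG, for the STAT letters TTCNNNGAA, for the GC box GGGCGG and for the TATA box TATAAA, and capitals mark the matches. This window holds both forms of the core, with GCGTG upstream of ACGTG, and a GC box on the minus strand.

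Timp1: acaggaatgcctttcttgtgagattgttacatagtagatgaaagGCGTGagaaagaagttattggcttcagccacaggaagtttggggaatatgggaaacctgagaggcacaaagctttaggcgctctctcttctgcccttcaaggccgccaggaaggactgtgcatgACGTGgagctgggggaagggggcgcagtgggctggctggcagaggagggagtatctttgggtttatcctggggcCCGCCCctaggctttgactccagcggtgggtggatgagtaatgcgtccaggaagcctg

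Over all 32851 RefSeq windows, ACGTG was found in 19.6%, GCGTG in 32.4%, the GC box in 35.7%, the AP-1 letters in 7.8%, the STAT letters in 8.3% and the TATA box in 13.6%. A match describes the sequence and is not evidence of binding.

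Timp2 encodes the inhibitor that, besides blocking MMPs, forms a bridge between the product of Mmp14 and pro-MMP2 at the cell surface. By group means it was the most abundant of the 10 genes per kb of transcript in each group, although Timp3 exceeded it in OIR p17 mice S7 and S8. Its level was 3805 to 5224 normalized reads in nOIR p14 and 3295 to 5770 in OIR p14 mice, with medians of 4883 and 4622. At p17 it was 4500 to 5271 in nOIR mice (median 4795) and 1514 to 5712 in OIR mice (median 4978). OIR p17 mice S6, S7 and S8 had 3177, 1514 and 2216 normalized reads, and the other 5 mice of the group had 4797 to 5712. The groups overlapped at both ages. The log2 fold change was -0.04 (SE 0.23, adjusted p = 0.964 by limma) at p14 and -0.33 (SE 0.21, adjusted p = 0.384) at p17. Without OIR p14 mouse S1 it was 0.055 at p14 (adjusted p = 0.951). Without mice S6, S7 and S8, the libraries with low GC-rich starts, it was 0.14 at p17 (adjusted p = 0.541), and with the level of GC-rich starts as a covariate it was 0.02 (adjusted p = 0.958).

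Timp3 encodes the inhibitor that stays bound to the extracellular matrix, and it is abundant in Bruch's membrane beneath the retina. Its level was 1616 to 2191 normalized reads in nOIR p14 mice (median 2109) and 2105 to 2960 in OIR p14 mice (median 2502), ranges that overlapped. At p17 it was 1793 to 2162 in nOIR mice (median 1952) and 2300 to 3613 in OIR mice (median 2965), so that every OIR p17 mouse exceeded every control. The log2 fold change was 0.30 at p14 (SE 0.11, adjusted p = 0.113 by limma), which did not pass. At p17 Timp3 rose 1.53-fold (log2 fold change 0.61, SE 0.10, adjusted p = 6.97e-05), and it passed without mice S6, S7 and S8 as well (0.53, adjusted p = 0.0012). Rescaling every mouse to the same total took the value at p14 past the threshold (0.35, adjusted p = 0.0389).

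Timp4 was low, with 16.2 to 79.9 normalized reads in nOIR p14, 26.2 to 89.6 in OIR p14, 41.4 to 82.9 in nOIR p17 and 50.9 to 131.7 in OIR p17 mice. The groups overlapped at both ages, and the log2 fold change of 0.21 at p14 (SE 0.34, adjusted p = 0.846 by limma) and 0.52 at p17 (SE 0.32, adjusted p = 0.354) did not pass. Timp3 and Timp4 lie inside Syn3 and Syn2, again on the opposite strand, and their exons overlap those of their hosts in GENCODE M21. By default featureCounts leaves out reads that fall on exons of both genes, so the levels of these pairs are uncertain. Syn3 did not pass at either age (adjusted p = 0.991 and 0.754). Syn2 had a mean of 2188 normalized reads in nOIR p17 and of 1169 in OIR p17 mice and fell by 1.18 on the log2 scale (SE 0.30, adjusted p = 0.00699 by limma).

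Mmp12 encodes the macrophage elastase. In nOIR p14 mice it had 0 to 14.2 normalized reads (median 3.36), and in OIR p14 mice 34.6 to 351 (median 85.1). At p17 it had 0 to 14.7 in nOIR mice (median 4.54) and 39.6 to 123 in OIR mice (median 83.8). Every OIR mouse was thus above every control of its age, and OIR p14 mouse S1, the library with the lowest level of GC-rich starts, held the highest value. Mmp12 rose by 4.40 on the log2 scale at p14 (SE 0.68, adjusted p = 6.77e-05 by limma) and by 4.15 at p17 (SE 0.64, adjusted p = 1.65e-05). With a pseudocount of 0.1 in place of 1, the values were 5.23 and 5.04. With the level of GC-rich starts as a covariate, they were 4.30 (adjusted p = 3.46e-05) and 3.78 (adjusted p = 5.71e-05). The effects at p17 and p14 differed by -0.25 (SE 0.93, adjusted p = 0.961), which did not pass.

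Markers of microglia and macrophages were followed beside Mmp12. At p14, 1 of 7 markers was higher (Cd68, a lysosomal protein of phagocytes, log2 fold change 1.30, adjusted p = 0.000851 by limma), and the summed level was 1047 to 1350 normalized reads in nOIR and 1104 to 1769 in OIR mice. At p17, 5 of 7 markers were higher, and the sum was 825 to 1101 in nOIR and 1638 to 2527 in OIR mice. The part of these cells in the level of Mmp12 was not tested. The genes most like Mmp12 over the 26 mice were Sat1, an enzyme of polyamine breakdown (r = 0.921), Lactb2 (0.891) and the MHC class I gene H2-Q2 (0.89), with r of 0.634, 0.604 and 0.427 over deviations from the group means.

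The Mmp12 window is shown as that of the other DEG. It belongs to the downstream one of 2 RefSeq starts, chr9:7347124-7347423 on the plus strand, and capitals again mark matches. It holds the AP-1 letters before the start and TATAAA after it. None of the motifs was found at the upstream start (chr9:7344147-7344446), and the window of Mmp3, a neighbour in the MMP cluster of chromosome 9, holds the AP-1 letters and a TATA box too. In GENCODE M21, exons of Mmp12 overlap those of Mmp1b on the opposite strand, so its level is uncertain to that extent.

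Mmp12: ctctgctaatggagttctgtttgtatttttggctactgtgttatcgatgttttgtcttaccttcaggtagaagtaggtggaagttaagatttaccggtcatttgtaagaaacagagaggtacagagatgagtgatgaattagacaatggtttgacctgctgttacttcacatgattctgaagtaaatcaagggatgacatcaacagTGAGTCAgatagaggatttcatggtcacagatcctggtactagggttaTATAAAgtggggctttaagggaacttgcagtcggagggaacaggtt

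**Figure D2:**
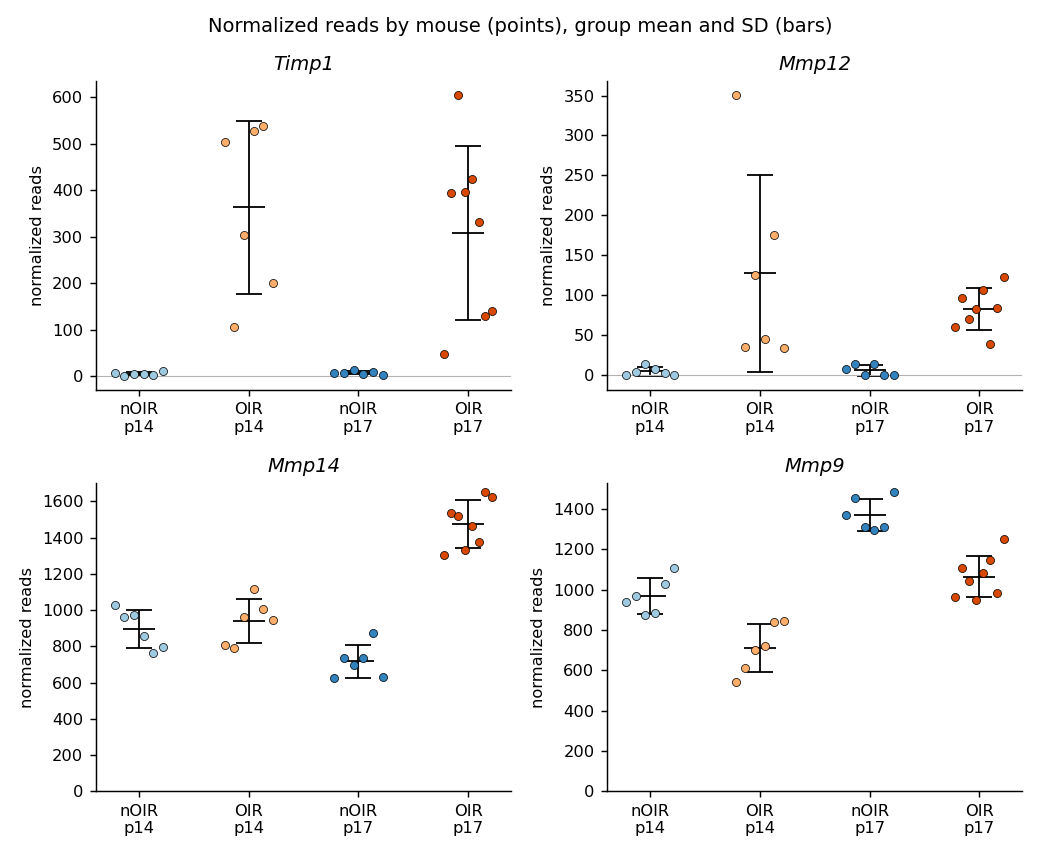
Normalized reads of Timp1, Mmp12, Mmp14 and Mmp9 on linear axes, with 1 point per mouse and bars for the group mean ± SD (n = 6, 6, 6 and 8). OIR mice lie above all controls of their age for Timp1 and Mmp12, only at p17 for Mmp14 (1302 to 1651 against 626 to 872), and below all controls of their age for Mmp9.

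Mmp14 encodes membrane type 1 MMP, a collagenase of the cell surface that activates pro-MMP2 and is used by endothelial tip cells. Its level was 762 to 1026 normalized reads in nOIR p14 mice (median 909) and 793 to 1117 in OIR p14 mice (median 951), and the groups overlapped. At p17 it was 626 to 872 in nOIR mice (median 716) and 1302 to 1651 in OIR mice (median 1491). Each of the 8 OIR p17 mice exceeded each mouse of the other 3 groups. The log2 fold change was 0.06 at p14 (SE 0.10, adjusted p = 0.842 by limma) and 1.04 at p17 (SE 0.10, adjusted p = 2.14e-09), a 2.06-fold rise. Mmp14 was the only one of the 10 genes whose effects at p17 and p14 differed past the threshold (0.98, SE 0.14, adjusted p = 7.18e-05), where 1.43% of all genes tested passed as higher in this comparison. The p17 effect was between 1.00 and 1.06 without mice S6, S7 and S8 and with each of the 3 library measures as a covariate.

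Vessel markers were followed beside Mmp14. Of 6 endothelial markers, 1 was higher and 1 lower at p14, and 5 were higher at p17. Their sum was 2771 to 3164 normalized reads in nOIR p14, 1845 to 3136 in OIR p14, 2356 to 2849 in nOIR p17 and 5307 to 6664 in OIR p17 mice. Of 5 pericyte markers, 2 were lower at p14 and 4 were higher at p17, with sums of 2979 to 3659, 1329 to 2839, 2532 to 3283 and 7929 to 11290 normalized reads in the same order of groups. Of 5 fibroblast markers, 2 were higher at p14 and 3 at p17, and the sums were 795 to 1295, 939 to 1924, 565 to 963 and 1394 to 4050. Those higher at p14 were Col1a1 and Pdgfra, joined by Col1a2 at p17. Pdgfra had the highest median of the 5 in each group (494.7, 703.2, 442.8 and 751.6 normalized reads), so these sums depend much on 1 gene. The part of endothelial cells, pericytes and fibroblasts in the level of Mmp14 was not tested.

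The Mmp14 window (chr14:54431348-54431647, plus strand) is shown because this gene rose at p17 and not at p14. It holds CACGT, which is ACGTG on the minus strand, and 2 adjoining GC boxes, in capitals.

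Mmp14: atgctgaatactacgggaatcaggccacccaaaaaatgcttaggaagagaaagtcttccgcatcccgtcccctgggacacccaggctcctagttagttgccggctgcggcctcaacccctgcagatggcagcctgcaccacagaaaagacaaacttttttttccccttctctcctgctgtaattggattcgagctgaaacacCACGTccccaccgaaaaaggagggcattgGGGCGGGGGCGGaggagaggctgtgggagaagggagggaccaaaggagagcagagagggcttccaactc

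Mmp15 encodes membrane type 2 MMP. It had 246 to 391 normalized reads in nOIR p14 mice and 94.5 to 309 in OIR p14 mice, with medians of 325 and 281. At p17 it had 232 to 338 in nOIR and 151 to 426 in OIR mice, with medians of 294 and 312. The lowest value of all belonged to OIR p14 mouse S1. Neither the log2 fold change of -0.40 at p14 (SE 0.24, adjusted p = 0.43 by limma) nor that of 0.00 at p17 (SE 0.22, adjusted p = 1) passed. Without mouse S1 the value at p14 was -0.14 (adjusted p = 0.815), and with the level of GC-rich starts as a covariate it was -0.39 (adjusted p = 0.409). At p17 it was -0.21 without mice S6, S7 and S8 (adjusted p = 0.725).

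Mmp9 and Mmp2 encode the gelatinases, which degrade the collagen IV of basement membranes. Mmp9 had 874 to 1110 normalized reads in nOIR p14 mice (median 955) and 543 to 843 in OIR p14 mice (median 713). At p17 it had 1296 to 1484 in nOIR mice (median 1343) and 949 to 1251 in OIR mice (median 1064). At both ages every OIR mouse was below every control. Mmp9 fell by 0.46 on the log2 scale at p14 (SE 0.10, adjusted p = 0.00383 by limma) and by 0.37 at p17 (SE 0.09, adjusted p = 0.00662), to 0.729 and 0.775 of the control level. It passed at both ages in all 26 fits that left out 1 mouse. Neutrophils store MMP9 in their granules, and as given above their markers were near 0 in these retinas, with sums of 0 to 5.26 normalized reads in nOIR p14, 0 to 11.4 in OIR p14, 3.31 to 11.7 in nOIR p17 and 1.56 to 40.5 in OIR p17 mice. Of the 3 neutrophil markers tested, S100a8 passed as higher at p17 (adjusted p = 0.0138 by limma). Its mean was 1.03 ± 1.76 (SD, n = 6) normalized reads in controls and 7.62 ± 6.46 (n = 8) in OIR mice. S100a8 passed the filter on low values only through the OIR p17 group, in which it was then high. The test therefore leaned towards a call, and no conclusion is drawn from it. The sums of photoreceptor markers given above did not overlap between OIR and nOIR mice at p14, where 2 of 6 markers were lower, and overlapped at p17, where 1 was lower. Their part in the level of Mmp9 was not tested.

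Mmp2 had 552 to 743 normalized reads in nOIR p14 mice and 468 to 836 in OIR p14 mice, with medians of 618 and 674 and no change past the threshold (log2 fold change 0.08, SE 0.12, adjusted p = 0.816 by limma). At p17 it had 566 to 673 in nOIR mice (median 638) and 689 to 908 in OIR mice (median 785), so the groups did not overlap. It rose 1.28-fold (log2 fold change 0.35, SE 0.11, adjusted p = 0.027). This call was lost without nOIR p17 mouse S3 (adjusted p = 0.0623), nOIR p17 mouse S6 (0.0709) or OIR p17 mouse S2 (0.0539). It was also lost without OIR p17 mice S6, S7 and S8 (adjusted p = 0.068) and with the lens markers as a covariate (adjusted p = 0.0545), while the log2 fold change stayed between 0.33 and 0.37.

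Mmp3 encodes stromelysin-1, which cleaves several matrix proteins and activates other pro-MMPs. No read of Mmp3 was found in any p14 mouse, OIR or control, so no fold is given. At p17 it had 6 reads over 2 of 6 nOIR mice and 37 reads over 6 of 8 OIR mice, with at most 4.801 normalized reads in a nOIR mouse and 11.6 in an OIR mouse. The comparison at p17 did not pass (log2 fold change 1.22, SE 0.52, adjusted p = 0.139 by limma). It passed only when nOIR p17 mouse S3, which held most of the control reads, or OIR p17 mouse S1 was left out (adjusted p = 0.0376 and 0.0483), and without OIR p17 mice S6, S7 and S8 the value was 0.56 (adjusted p = 0.659). Mmp3 passed the filter on low values only through the OIR p17 group, in which it was then high. These fits therefore leaned towards a call, and no conclusion is drawn from them.

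**Figure D3:**
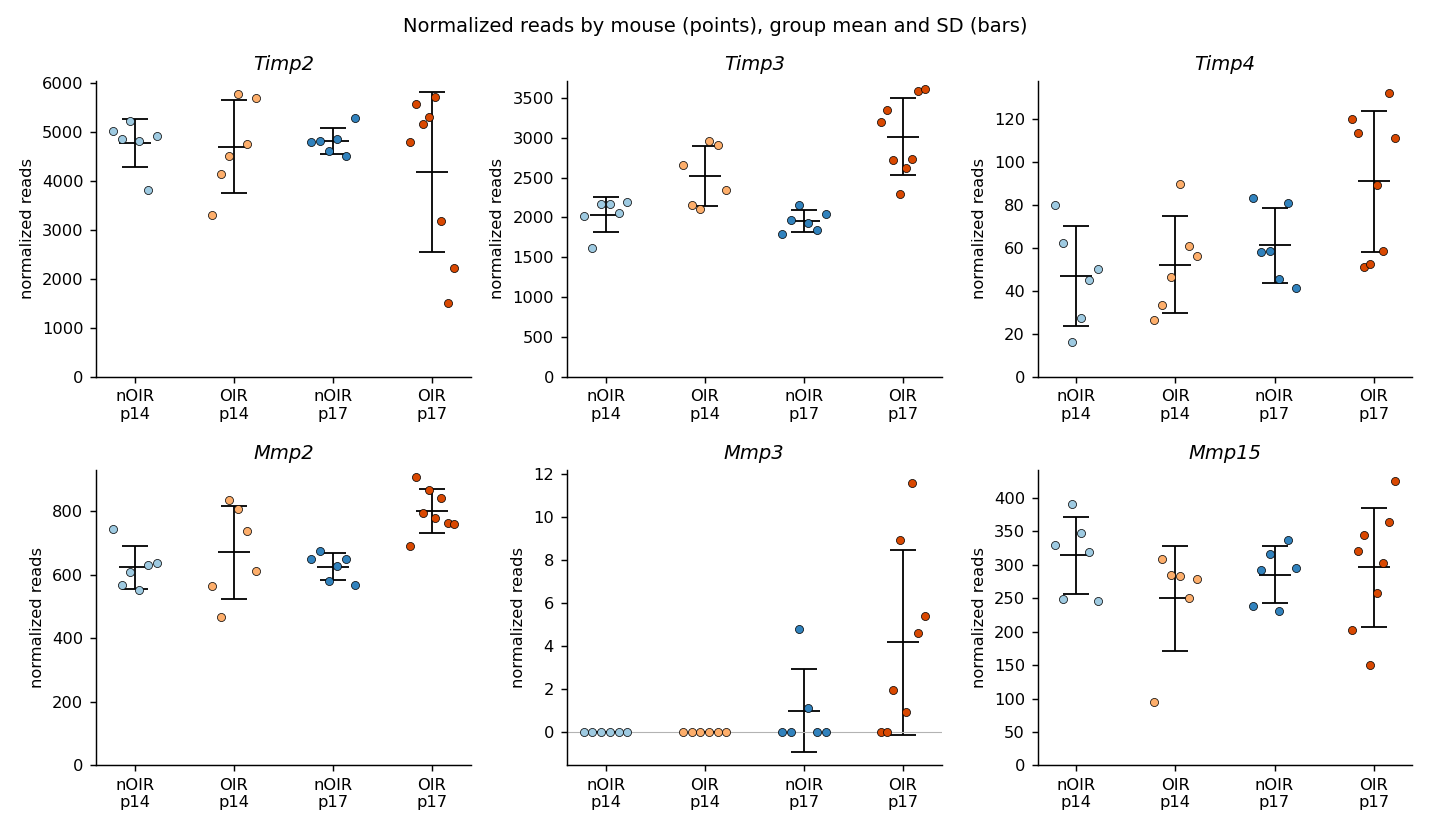
Normalized reads of Timp2, Timp3, Timp4, Mmp2, Mmp3 and Mmp15 on linear axes, with 1 point per mouse and bars for the group mean ± SD (n = 6, 6, 6 and 8). OIR p17 mice lie above their controls for Timp3 and Mmp2, 3 OIR p17 mice lie low for Timp2 (1514 to 3177), and Mmp3 is at 0 in the p14 mice.

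With age, Mmp9 was the gene that changed in control retinas. It rose from 968 ± 89.98 (SD, n = 6) normalized reads in nOIR p14 to 1372 ± 80.35 (n = 6) in nOIR p17 mice, without overlap (log2 fold change 0.51, SE 0.10, adjusted p = 0.015 by limma), where 0.158% of all genes tested passed as higher. This call was lost without nOIR p14 mouse S3 (log2 fold change 0.48, adjusted p = 0.0632). Mmp14 had a log2 fold change of -0.32 between control ages, with an adjusted p of 0.251. In OIR retinas, Mmp9 and Mmp14 were higher at p17 than at p14, where 4.11% of all genes tested passed as higher. Mmp9 rose by 0.60 (SE 0.09, adjusted p = 9.22e-05) from 711 ± 120 to 1066 ± 103 normalized reads, and Mmp14 by 0.66 (SE 0.10, adjusted p = 3.4e-05) from 938 ± 122 to 1475 ± 131. These age comparisons share their mice with the comparisons of OIR against nOIR.

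Mmp3 also passed between OIR p14 and OIR p17 but had to differ there, having passed the filter on low values only through the OIR p17 group in which it was then high (log2 fold change 1.82, SE 0.52, adjusted p = 0.0315 by limma). Against a floor of 3 reads over the OIR p14 group, its mean of 4.16 normalized reads in OIR p17 mice was at least 8.35-fold higher. The call rests on few reads. It was lost when any of the 6 OIR p14 mice was left out (adjusted p from 0.0505 to 0.058) and without OIR p17 mouse S4 (0.0625), S6 (0.0735), S7 (0.0612) or S8 (0.0662). It was also lost in a fit on these groups alone (adjusted p = 0.1), without S6, S7 and S8 together (0.312) and with the lens markers as a covariate (0.0785).

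Levels were also compared between genes as normalized reads per kb, using the longest coding transcript of each gene in GENCODE M21. In nOIR p14 mice the order was Timp2 (1285 ± 133, SD, n = 6), Timp3 (431 ± 45.9), Mmp9 (305 ± 28.3), Mmp14 (277 ± 32.9), Mmp2 (202 ± 22.1), Mmp15 (61.2 ± 11.1), Timp4 (8.50 ± 4.21), Timp1 (5.82 ± 3.91) and Mmp12 (1.38 ± 1.46). Neighbours in this order overlapped between mice except at the steps from Timp2 to Timp3, from Mmp2 to Mmp15 and from Mmp15 to Timp4. In OIR p17 mice Timp1 stood in place 4 of 10 (349 ± 212 per kb, n = 8), behind Timp2 (1126 ± 442), Timp3 (638 ± 103) and Mmp14 (455 ± 40.4), and ahead of Mmp9 (336 ± 32.5) and Mmp2 (260 ± 22.5). The ranges of these neighbours overlapped, other than those of Mmp9 and Mmp2.

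Timp1 made up 0.327% ± 0.21 (SD, n = 6) of the summed level per kb of the 4 TIMP genes in nOIR p14 mice and 7.08% to 28.1% (median 19.2%) in OIR p14 mice. At p17 its share was 0.458% ± 0.217 in nOIR and 15.5% ± 7.24 (n = 8) in OIR mice. The summed TIMP level overlapped between groups, with 1471 to 1875 per kb in nOIR p14, 1700 to 2795 in OIR p14, 1626 to 1865 in nOIR p17 and 1339 to 2672 in OIR p17 mice. At p17 the overlap came from OIR mice S6, S7 and S8, and the other 5 OIR mice lay above all controls of their age. Among the 6 MMP genes, Mmp9 held the largest share in nOIR p17 mice (47.3% ± 2.89) and Mmp14 in OIR p17 mice (40.2% ± 1.86). The summed MMP level was 792 to 918, 660 to 912, 882 to 965 and 985 to 1262 per kb in the same order of groups. No test was made on these sums and shares, which are built from the values above.

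**Figure D4:**
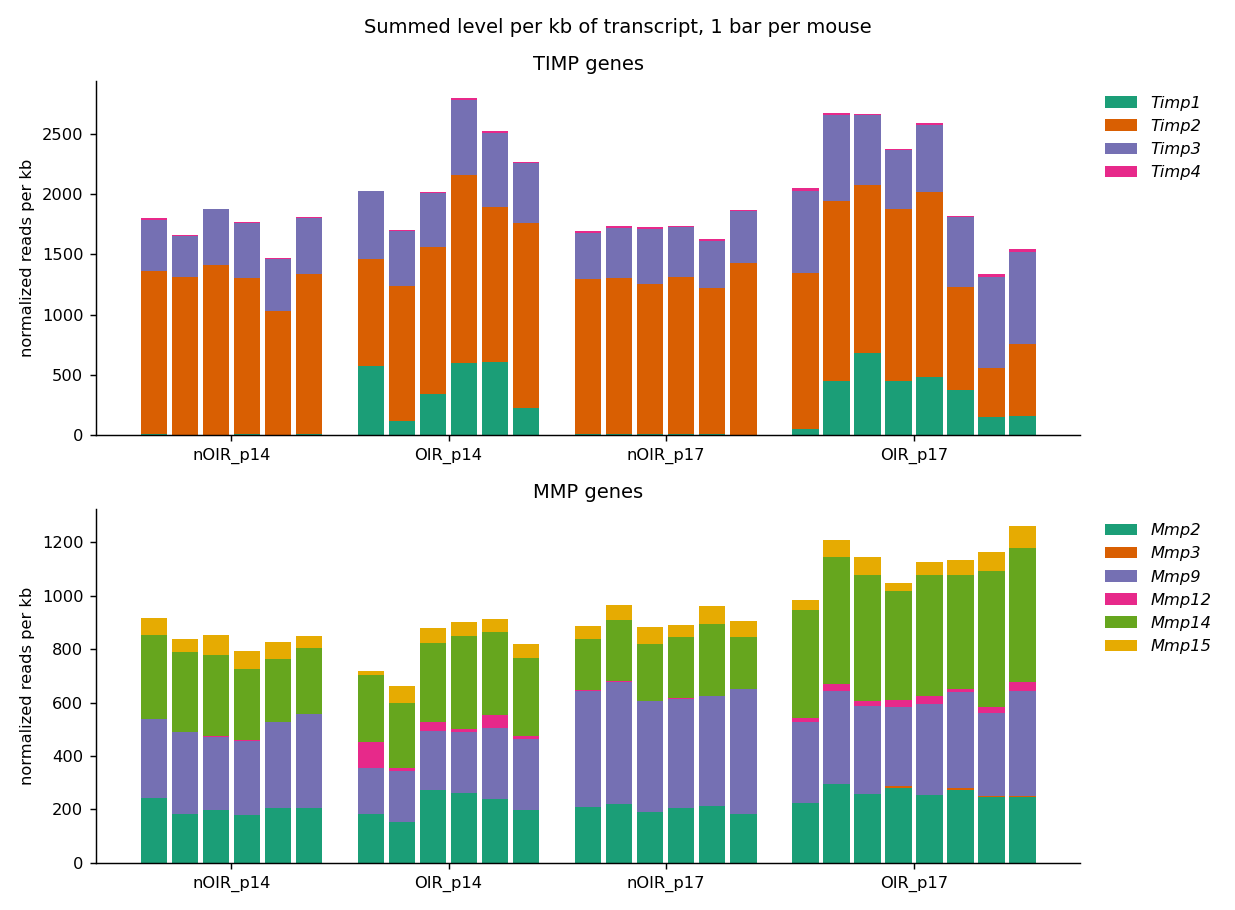
Stacked level of the 4 TIMP genes (top) and the 6 MMP genes (bottom) in normalized reads per kb of transcript, with 1 bar per mouse and linear axes from 0. Timp1 is a visible part of the bars in OIR mice (medians of 19.2% at p14 and 17.6% at p17), and Mmp14 fills 40.2% of the MMP bars in OIR p17 mice.

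The same system was followed in lists of related genes. Of 17 other MMP genes, 16 were in the table and 11 passed the filter on low values. At p14, 1 was higher, Mmp13, a collagenase, with 1.44 ± 2.06 (SD, n = 6) normalized reads in controls and 11.35 ± 6.80 in OIR mice (adjusted p = 0.0292 by limma). The shares of all genes tested that passed, given above for the 10 genes (3.18% higher and 2.91% lower at p14, 7.39% and 5.12% at p17), are the background for each of these lists. The lists too were chosen with earlier results known, so their counts do not test them as sets. At p17, 4 were higher (3 without Mmp10) and 1 lower, with a list median of 0.86 on the log2 scale beside -0.02 over all genes tested. Mmp11 (stromelysin-3) rose 2.95-fold (adjusted p = 2.43e-05) and Mmp25, a membrane-type MMP of leukocytes, 9.38-fold (adjusted p = 8.71e-05). Mmp10 (stromelysin-2), a gene of the chromosome 9 cluster, was at 0 in every control and reached 17.4 ± 13.3 (n = 8) normalized reads in OIR p17 mice, at least 34.3-fold higher than a floor of 3 reads over the nOIR p17 group (adjusted p = 0.000224). Mmp10 likewise passed the filter only through the OIR p17 mice, so it had to differ. Mmp25 also differed between the effects at p17 and p14 (4.02, SE 0.81, adjusted p = 0.00482).

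Of 10 ADAM proteases, membrane-bound sheddases, 3 were higher at p17, and the list medians were -0.11 at p14 and 0.12 at p17 on the log2 scale. The higher genes were Adam12 (2.65-fold, adjusted p = 0.000495 by limma), Adam17 (1.25-fold, adjusted p = 0.0314) and Adam15 (1.25-fold, adjusted p = 0.034). Of 19 ADAMTS proteases, which are secreted and cut proteoglycans and other matrix proteins, 5 were higher at p14, and 7 were higher and 1 lower at p17. Adamts19 rose 6.16-fold at p14 (adjusted p = 2.75e-05), and Adamts1 1.92-fold at p14 (adjusted p = 0.000301) and 2.07-fold at p17 (adjusted p = 7.11e-06). Adamts4 rose 3.63-fold at p17 (adjusted p = 5.25e-09), and Adamts5 fell to 0.63 of its control level (adjusted p = 8.67e-06). The medians of the ADAMTS list were 0.21 at p14 and 0.48 at p17.

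Of 15 regulators of MMPs, 6 were higher and 1 lower at p14, and 8 were higher and 2 lower at p17, with list medians of 0.96 and 1.29 on the log2 scale. A2m, a broad protease inhibitor of the plasma and of reactive glia, rose from 235 ± 93.2 (SD, n = 6) to 2849 ± 1788 normalized reads at p14 and from 237 ± 81.4 to 1968 ± 1217 (n = 8) at p17 (adjusted p = 4.31e-07 and 2.74e-07 by limma). Plat, the tissue plasminogen activator, rose 2.43-fold and 3.55-fold (adjusted p = 1.6e-07 and 7.57e-12). Lcn2, whose product binds MMP9, rose 5.34-fold at p14 (adjusted p = 2.3e-05).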

How the data were processed

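Whole retinas of 27 mice were sequenced by the authors, 1 library per mouse, with a SMARTer kit that keeps no strand information. Per the labels and the study's methods, the authors used FastQC 0.73, STAR 2.7.8a with Gencode M28, featureCounts 2.0.1 at default settings and DESeq2 1.34 in R 4.0.3. The deposited signal is normalized reads, that is counts divided by 1 size factor per mouse. Each mouse's smallest value above 0 was taken as 1 read, and 100% of values were then whole within 0.001 reads. The authors' own group means, fold changes and p-values in the table were not used.

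Of the 27 mice, 26 were used, since the study set aside S4 of the nOIR p14 group. In R 4.3.3, the 4 groups shared 1 fit of limma 3.58.1 (lmFit, then eBayes allowing a mean-variance trend) on log2(normalized reads + 1), for 27137 genes with a mean of at least 1, with Benjamini-Hochberg adjustment over these genes, and the code was tested on simulated data. Fold changes are on this scale, where those of low genes depend on the pseudocount and can differ from ratios of means. The p-values set each group difference against the spread between mice, pooled per gene over the 4 groups and moderated by eBayes. Transcript lengths, GC content and overlaps came from GENCODE M21, matched by symbol, and promoters from RefSeq.

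The 10 genes, the related lists and the markers were chosen with earlier results of these data known. Named from each related list were up to 3 genes per comparison with the smallest adjusted p among those that passed, and the synapsin genes; not all of them are printed. Genes most like a DEG were the 3 with the highest Pearson r among 19004 genes with a mean of at least 10. Alternatives were a pseudocount of 0.1, no filter, a mean of at least 10, all 27 mice, a separate fit for each comparison, a replicate block, a common total per mouse, quantile normalization, edgeR 4.0.16 and DESeq2 1.42.0 on recovered reads, and leaving out each mouse; they were run for the 10 genes and not for the related lists. Added after the data were seen were the fit without OIR p17 mice S6, S7 and S8 and 3 covariates, namely the level of GC-rich starts, of long against short transcripts, and of lens markers.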

Additional observations from a re-analysis of the deposited data

Results flagged for a closer look

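The effect of OIR on Mmp14 differed between p17 and p14 by 0.98 on the log2 scale (SE 0.14, adjusted p = 7.18e-05 by limma), with all 8 OIR p17 mice above all controls and overlapping groups at p14.

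Single mice stood apart from their group in 4 of the 38 combinations of gene and group that were examined by Dixon's criterion, which flags about 1 in 20 by chance. Timp2 was lowest in nOIR p14 mouse S6, with 3805 normalized reads, and Timp3 in nOIR p14 mouse S2, with 1616. Mmp3 was highest in nOIR p17 mouse S3, with 4.801 normalized reads. Mmp15 was lowest in OIR p14 mouse S1, with 94.5 normalized reads, and this library also had the lowest level of genes with GC-rich starts (-0.30 on the log2 scale).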

How the results depend on the processing

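The calls on Timp1 and Mmp12 at both ages, on Mmp9 at both ages, and on Timp3 and Mmp14 at p17 held in all 10 alternatives, in all 26 fits without 1 mouse and in the 4 alternatives chosen after seeing the data. No called fold of the limma fit moved by over 1.5 times when 1 mouse was left out (at most 1.35). Signs turned only for values that had not passed. Timp2 at p14 was 0.0019 with a common total per mouse, 0.056 with the level of GC-rich starts as a covariate, and -0.11 to 0.055 without 1 mouse. Timp2 at p17 was 0.14 without mice S6, S7 and S8 and 0.016 with that covariate. Timp4 at p14 was -0.047 to 0.40 without 1 mouse. Mmp15 at p17 was -0.10 after quantile normalization, -0.21 without S6, S7 and S8, -0.031 with long against short transcripts and -0.13 with lens markers as a covariate, and -0.084 to 0.13 without 1 mouse. The difference of the effects on Mmp12 was -0.69 to 0.16 without 1 mouse. Between control ages, 0 to 1 of the 10 genes passed without 1 mouse, since Mmp9 was lost without nOIR p14 mouse S3. The causes were not tested. DESeq2 gave no adjusted p for Mmp3. On the recovered reads, edgeR called 1562 of all genes tested at p14 and 3240 at p17.

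The correlation of deviations between same-numbered mice had a median of 0.0031 over 34 pairs (-0.108 to 0.161), beside -0.00117 for mice of other numbers. Of 26 mice, 5 correlated best with their own number. These values do not decide whether same-numbered mice share more than a number. With the mouse number as a replicate block, Mmp15 at p17 was -0.10, 5 of 10 genes passed at p17 in place of 6 (Mmp2, adjusted p = 0.0559) and 2 in place of 3 between OIR ages (Mmp3, adjusted p = 0.0975).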

Other observations

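In nOIR p14 mouse S4, which was used only in the alternative with all 27 mice, Timp1 had 13.9, Timp2 5847, Timp3 2677 and Mmp14 1102 normalized reads, each above the other 6 nOIR p14 mice (at most 10.5, 5224, 2191 and 1026). Timp4, Mmp2, Mmp9, Mmp12 and Mmp15 of this mouse lay within the range of the others, and Mmp3 was at 0.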
